A study of Mus musculus with 13 samples.

Results

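Cholesterol and fatty acids are built from the same starting molecule, acetyl-CoA. The genes described here are the 31 mouse genes that code for enzymes of cholesterol synthesis, for regulators of the SREBP pathway and for enzymes of fatty acid synthesis. They were taken by gene symbol from a list that was chosen with earlier results of these data known. All 31 were found among the 36287 genes of the table. By role they were 8 enzymes of the mevalonate pathway and its isoprenoid branches, 11 enzymes from squalene to cholesterol, 6 regulators of the pathway (1 of them, Stard4, a sterol carrier) and 6 enzymes of fatty acid synthesis.

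Poly(A)-selected RNA from hippocampus of 5xFAD mice was sequenced in bulk. Every mouse of the study, the saline controls included, was 5xFAD, a line that carries mutated human amyloid precursor protein and presenilin transgenes under a neuronal promoter and develops amyloid plaques. The groups received saline (4 libraries, numbered 18, 19, 32 and 38), Aducanumab, which is a monoclonal antibody against amyloid beta aggregates (4 libraries, numbered 24, 50, 56 and 58), or ACLP-NT, an agent known here by its code name (5 libraries, numbered 17, 27, 49, 53 and 55). Age, sex, dose, treatment time and batch were not given in the sources used here, no group without the transgenes was analysed here, and the labels number the libraries without saying outright that each is a separate animal. SDs and p-values therefore measure the spread between these libraries, which may in part be technical. The study's title places the treatments in the setting of microglial lysosomes in Alzheimer's disease, and it names no question about sterols.

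The brain makes its own cholesterol, because lipoprotein cholesterol of the blood does not pass the blood-brain barrier. Oligodendrocytes use it for myelin, and astrocytes make and export it to neurons. Synthesis is controlled at the level of transcription: when membranes of the endoplasmic reticulum are low in sterol, Scap escorts SREBP proteins to the Golgi, where they are cut, and the released fragments enter the nucleus and switch on the genes of the pathway, while Insig proteins hold Scap back when sterol is plentiful.

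Total counts per library ran from 53642019 to 69734713, all 31 genes passed the filter on low counts, and the lowest count of any of them in any library was 619 (Ebp). The libraries expressed markers of hippocampal neurons, at summed levels of 635 to 955 CPM (counts scaled to library size), with no marker gene of that list at 0. Other tissue also entered some libraries: the sum of 10 choroid plexus markers ran from 50.1 to 5083 CPM in saline, from 83.8 to 5169 in Aducanumab and from 86.9 to 5044 in ACLP-NT. The sum of 12 oligodendrocyte and myelin markers was 3807 CPM in ACLP-NT 17 and 3724 in ACLP-NT 27, against 4712 to 6378 elsewhere. In bulk tissue, fewer cells of a type and less RNA per cell cannot be told apart.

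The promoters are shown because SREBP proteins act there, together with the factors NF-Y, which binds CCAAT, and Sp1, which binds GC-rich boxes. RefSeq windows on GRCm38.p6, from 250 bases before to 50 bases after the transcript start, matched 25 of the 31 genes (33 windows). Scd1, Scd2, Sqle, Fdft1, Stard4 and Fdps had no entry. The 250 bases before the start are printed for Hmgcs1, which makes HMG-CoA at the entry to the pathway, for Hsd17b7 and Msmo1, 2 sterol enzymes whose levels followed the other genes closely across libraries, and for Tm7sf2, a sterol enzyme whose level did not. These promoters are examples, and a relation between promoter letters and shared variation was not tested. Capitals mark the letters TCACNCCAC of a sterol regulatory element and the letters CCAAT, read on either strand (ATTGG on the strand shown). The windows lie at chr13:119690101-119690350 (+ strand, Hmgcs1), chr1:169969206-169969455 (- strand, Hsd17b7), chr8:64733579-64733828 (- strand, Msmo1) and chr19:6067851-6068100 (- strand, Tm7sf2).
Hmgcs1: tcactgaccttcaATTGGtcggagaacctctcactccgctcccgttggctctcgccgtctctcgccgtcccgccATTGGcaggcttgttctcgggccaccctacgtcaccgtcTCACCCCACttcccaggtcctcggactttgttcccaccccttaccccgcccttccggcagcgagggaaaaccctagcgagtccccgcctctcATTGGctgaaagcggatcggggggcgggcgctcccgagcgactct
Hsd17b7: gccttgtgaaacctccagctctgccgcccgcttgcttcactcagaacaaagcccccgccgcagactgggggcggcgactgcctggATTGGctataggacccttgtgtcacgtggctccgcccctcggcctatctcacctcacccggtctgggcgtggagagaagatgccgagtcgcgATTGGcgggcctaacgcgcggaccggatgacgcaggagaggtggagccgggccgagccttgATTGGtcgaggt
Msmo1: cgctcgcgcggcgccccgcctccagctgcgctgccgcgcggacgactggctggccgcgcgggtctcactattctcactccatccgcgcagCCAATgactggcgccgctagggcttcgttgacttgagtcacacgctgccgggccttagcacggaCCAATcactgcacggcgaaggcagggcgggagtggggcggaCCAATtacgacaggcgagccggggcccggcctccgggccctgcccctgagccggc
Tm7sf2: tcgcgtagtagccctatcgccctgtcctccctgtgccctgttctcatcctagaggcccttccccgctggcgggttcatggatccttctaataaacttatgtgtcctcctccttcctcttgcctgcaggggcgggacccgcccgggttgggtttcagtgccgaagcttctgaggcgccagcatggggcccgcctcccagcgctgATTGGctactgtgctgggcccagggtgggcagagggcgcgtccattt

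In the Hmgcs1 promoter the letters TCACCCCAC began at position -137 from the start and stood between copies of ATTGG at -176 and -45. No other gene of the 25 held TCACNCCAC in its window, on either strand, and the share of 4.0% stood beside 1.44% of 27025 genes with windows of the same length. CCAAT was common: 22 of the 25 genes (88.0%) held it on either strand, against 41.1% of all genes. The GC box GGGCGG was found in 21 of the 25 genes (84.0%), against 38.2% of all genes. The palindromic E-box CACGTG, a form that SREBP proteins can also bind, was found in 5 of the 25 (Dhcr7, Hsd17b7, Insig1, Sc5d and Scap, 20%), against 8.09% of all genes. The 4 motifs were searched separately, on both strands, so a base could count for more than 1 of them, and genes with several listed starts had several windows. Counted per window, the shares were 3.03% against 1.24% for TCACNCCAC, 69.7% against 37.4% for CCAAT, 75.8% against 35.7% for GGGCGG and 18.2% against 7.15% for CACGTG. The 27025 genes were not matched to the 25 for expression or base content. Whether the higher shares are particular to this pathway was therefore not tested. A match is a run of letters and was not tested for binding. Forms that differ from the searched letters were not counted, so a gene without TCACNCCAC is not shown to lack a sterol regulatory element.

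Levels between genes are compared per length, as FPKM, and are given as medians over the 13 libraries. The order of the genes therefore depends on the gene lengths that the authors used, which were not checked here. Scd2, the main stearoyl-CoA desaturase of the brain, which puts the double bond into stearic and palmitic acid, stood far above the rest at 289 FPKM, with a range of 256 to 301. Its paralog Scd1 had 33.4 FPKM. The table places the pair on chromosome 19, Scd2 at 44282113 to 44295303 and Scd1 at 44382894 to 44396148, 87590 bases apart, in coordinates of an unstated genome build. The 2 genes are close copies of each other, so reads could be split between them, and their separate levels are uncertain to that extent.

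Hmgcs1 was the next highest at 53.2 FPKM, and its lowest library, at 40.3, lay above the highest library of Srebf2, at 38.3. Srebf2, which codes for the SREBP protein that mainly drives cholesterol synthesis, had 34.7 FPKM, and its range overlapped that of Scd1. Below Hmgcs1 the mevalonate enzymes lay between 15.8 FPKM (Acat2, the thiolase that makes acetoacetyl-CoA) and 6.78 FPKM (Mvk, mevalonate kinase). In between stood the isomerase Idi1 (11.98 FPKM), farnesyl diphosphate synthase Fdps (11.9), phosphomevalonate kinase Pmvk (11.4), the geranylgeranyl diphosphate synthase Ggps1 (10.4) and the decarboxylase Mvd (9.84).

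Among the sterol enzymes, Fdft1, the squalene synthase at the branch point to sterols, was the highest at 20.1 FPKM. Lss, the lanosterol synthase that closes the sterol rings, was the lowest of all 31 genes at 3.96 FPKM. That place rests on the length: in CPM, which is not divided by length, Lss averaged 46.2 in saline, against 12.3 for Ebp and 20.7 for Mvk. The desaturase Sc5d (15.7 FPKM), the methylsterol oxidase Msmo1 (14.2), the lanosterol demethylase Cyp51 (14.0), squalene epoxidase Sqle (13.8) and the dehydrogenase Nsdhl (10.5) formed an upper set. A lower set held Dhcr7, the last reductase on the way to cholesterol (5.99), the isomerase Ebp (5.14), the ketone reductase Hsd17b7 (4.88) and the reductase Tm7sf2 (4.53).

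The other regulators were Insig1 (21.1 FPKM), Srebf1 (14.5), Insig2 (13.2), Scap (12.99) and Stard4 (5.93). Srebf1 codes for SREBP proteins that favour genes of fatty acid synthesis. In fatty acid synthesis, Acly, which makes acetyl-CoA from citrate, had 29.1 FPKM and Fasn, the fatty acid synthase, 24.3. Acss2, which makes acetyl-CoA from acetate, had 5.51, and Acaca, the acetyl-CoA carboxylase that makes malonyl-CoA, had 4.54.

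**Figure D1:**
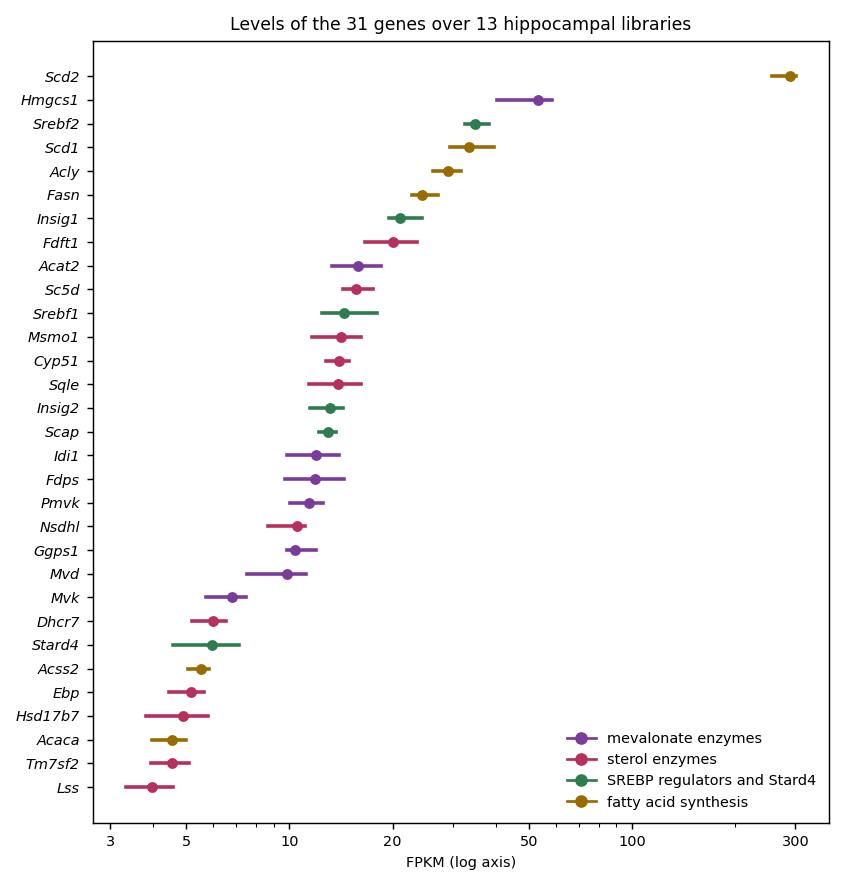
Median level of each of the 31 genes over the 13 libraries (points) with the range from the lowest to the highest library (bars), in FPKM on a log axis, ordered by level and coloured by role. Scd2 lies at 256 to 301 FPKM, above all the others, Hmgcs1 is next at 53.2 FPKM, and Lss is the lowest at 3.96 FPKM.

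Between libraries, the levels of a gene differed by less than 1.6-fold. The ratio of the highest to the lowest library ran from 1.12 (Scap) to 1.57 (Stard4), with a median of 1.29. Within groups, the coefficient of variation of CPM ran from 3.08% (Scap) to 14.1% (Stard4), with a median of 7.80%, beside 14.3% over all 22065 genes tested. By role its median was 9.70% in the mevalonate enzymes, 9.17% in the sterol enzymes, 6.44% in the regulators and 4.92% in fatty acid synthesis. Genes with fewer counts vary more by counting alone, and the 22065 genes include many of lower count.

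In all, 6 genes share bases with a gene whose mean count is at least 10% of their own. Fdft1 overlaps Ctsb, a lysosomal protease gene with a mean count of 41910, by 774 bases on the opposite strand, and Ggps1, Cyp51, Srebf1 and Acss2 overlap Arid4b, Akap9, Rai1 and Gss on the opposite strand. Tm7sf2 shares 9 bases with Vps51 on the same strand. The sources used here do not say whether the counting used strand, and the reads of such partners may then not be told apart.

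After the group means were removed, most of the cholesterol enzymes still varied together from library to library. Correlations were computed on log2 CPM over the 13 libraries. The 465 pairs of the 31 genes had a median Pearson's r of 0.355, and 41.3% of them reached 0.5. Among the 171 pairs of mevalonate and sterol enzymes the median was 0.569, and 55.0% reached 0.5. Over all 243421080 pairs of tested genes the median was -0.00175, and 7.53% reached 0.5. That background is not matched for count: 31.8% of tested genes had a mean count under 100, and counting noise weakens their correlations. Pairs share genes and libraries, so these shares are descriptions. By role, the median was 0.621 for pairs of sterol enzymes, 0.562 between mevalonate and sterol enzymes, 0.422 between mevalonate enzymes and regulators, and -0.154 for pairs of fatty acid enzymes.

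Hsd17b7, Sqle and Idi1 followed the other genes most closely, with median r of 0.72, 0.708 and 0.704 over their 30 partners. Dhcr7 (0.699) and Stard4 (0.69) came next. Fasn, though an enzyme of fatty acid synthesis, had a median r of 0.654, close to that of Srebf2 (0.629) and of Hmgcs1 (0.639). At the other end were Scd1 (-0.548), Srebf1 (-0.39), Scd2 (-0.308) and Tm7sf2 (-0.121). Insig1 had 0.46 and Insig2 0.0254.

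**Figure D2:**
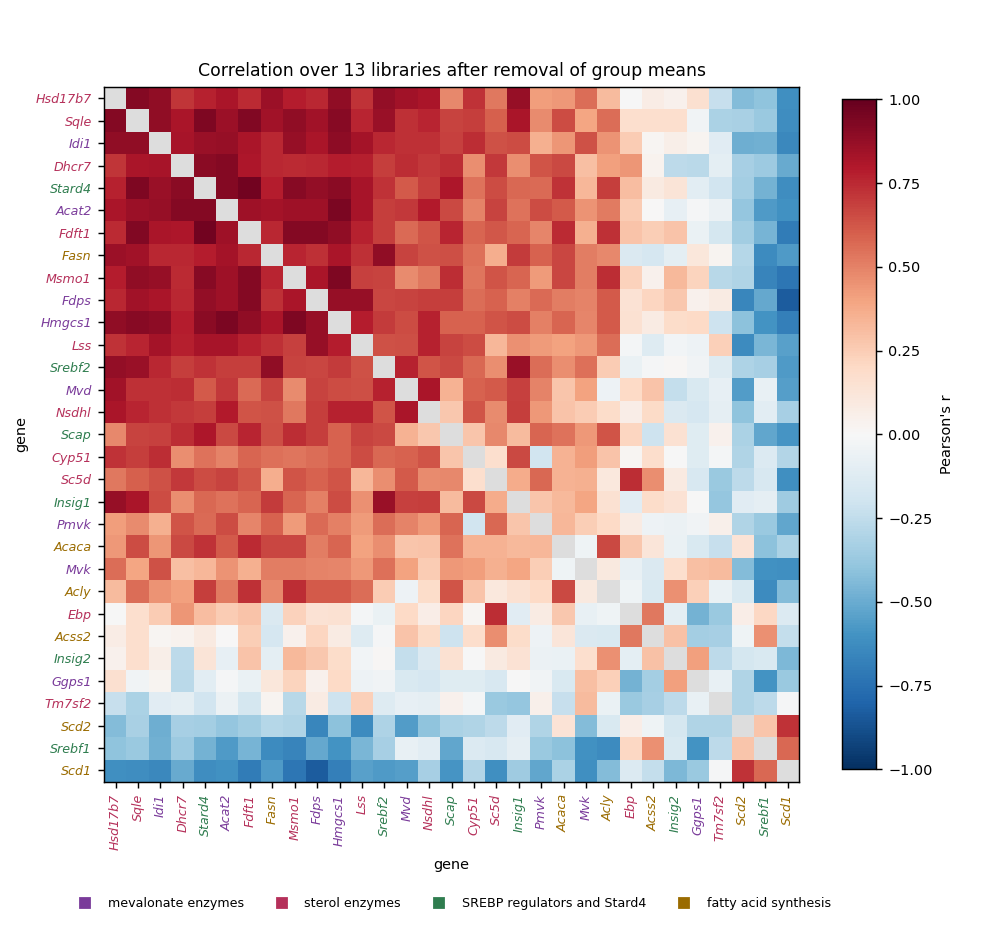
Pearson's r between log2 CPM of each pair of the 31 genes over 13 libraries after removal of the group means, with genes ordered by their median r with the others and gene names coloured by role. A block of mevalonate and sterol enzymes with Stard4, Fasn and Srebf2 stands at the upper left, and Scd2, Srebf1 and Scd1 at the lower right have negative values with most of that block.

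Fdft1 and Stard4, the sterol carrier, formed the closest pair. Fdft1 had 104, 81.7, 102 and 88.2 CPM in the saline libraries, in the order of their numbers, 106, 86.6, 99.5 and 75.9 in Aducanumab and 94.1, 85.4, 94.3, 73.5 and 87.2 in ACLP-NT. Stard4 had 43.1, 35.8, 40.7 and 35.3 CPM in saline, 42.3, 31.6, 38.6 and 27.0 in Aducanumab and 37.3, 32.6, 38.0, 27.8 and 35.4 in ACLP-NT. Both were lowest in Aducanumab 58 and ACLP-NT 53, and both were high in saline 18 and Aducanumab 24. Pearson's r was 0.966 (permutation p = 5e-05, adjusted p = 0.00814 over the 465 pairs) and Spearman's rho 0.967 (permutation p = 8e-05, adjusted p = 0.017). Without Aducanumab 58 and ACLP-NT 53, the libraries farthest from the median, r was 0.935.

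Acat2 and Hmgcs1, neighbouring steps of the pathway, had r = 0.939 (permutation p = 0.00031, adjusted p = 0.012) and rho = 0.929 (permutation p = 0.00024, adjusted p = 0.0192). Hmgcs1 and Msmo1 had r = 0.936 (permutation p = 0.00054, adjusted p = 0.0174) and rho = 0.885 (permutation p = 0.00142, adjusted p = 0.0436). Without Aducanumab 24 and 58, the values of r were 0.825 and 0.823. In all, 37 of the 465 pairs had an adjusted permutation p under 0.05.

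Fdps and Scd1 varied in opposite directions. Fdps had 65.0, 55.5, 65.8 and 57.4 CPM in saline, 60.2, 49.9, 54.6 and 43.2 in Aducanumab and 60.2, 53.8, 51.8, 45.1 and 49.3 in ACLP-NT. Scd1 had 176, 203, 175 and 187 CPM in saline, 172, 180.3, 178 and 205 in Aducanumab and 155, 166, 190.0, 184 and 167 in ACLP-NT. Aducanumab 58 had the highest Scd1 and the lowest Fdps of all libraries. Pearson's r was -0.83 (permutation p = 0.00248, adjusted p = 0.0384), rho -0.874 (permutation p = 0.00217, adjusted p = 0.0436), and r was -0.766 without Aducanumab 24 and 58. The next lowest pairs were Msmo1 with Scd1, with r = -0.719 (permutation p = 0.0112, adjusted p = 0.0735) and rho = -0.621 (permutation p = 0.0401, adjusted p = 0.145), and Fdft1 with Scd1, with r = -0.703 (permutation p = 0.0168, adjusted p = 0.0917) and rho = -0.654 (permutation p = 0.0306, adjusted p = 0.131). Neither passed after adjustment. Without the 2 farthest libraries their r was -0.578 and -0.52.

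**Figure D3:**
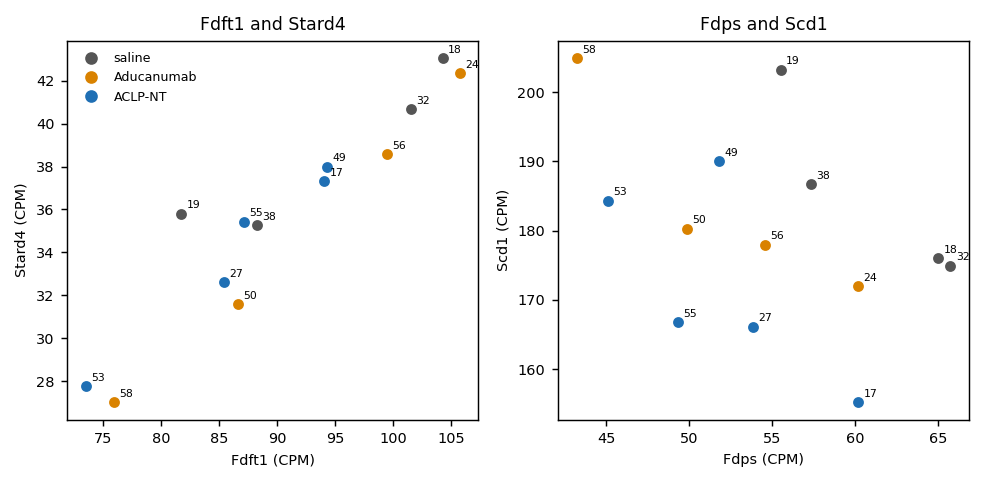
Levels in CPM of Stard4 against Fdft1 and of Scd1 against Fdps, 1 point per library, labelled by its number and coloured by group. Both Stard4 and Fdft1 are lowest in Aducanumab 58 and ACLP-NT 53 and highest in saline 18 and Aducanumab 24, while Scd1 is highest where Fdps is lowest, in Aducanumab 58.

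A few libraries held many of the extremes. Aducanumab 24 was the highest library for 10 of the 19 mevalonate and sterol enzymes, and Aducanumab 58 was the lowest for 7. Of all 31 genes, ACLP-NT 53 was the lowest library for 6 and saline 18 the highest for 7. Without Aducanumab 24, and likewise without Aducanumab 58, the median r of the enzyme pairs was 0.479. With each of the 13 libraries left out in turn, the share of enzyme pairs at 0.5 or more stayed between 46.2% and 61.4%, beside 7.99% to 8.88% of all gene pairs.

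Marker sums were compared with these levels in the same way. The sum of 9 neuron markers was 5074 CPM in Aducanumab 58, against 5515 to 6476 in the other libraries, and it had a median r of 0.576 with the 31 genes, above 0 for 26 of them. For Fasn it was 0.878 (permutation p = 0.00072, adjusted p = 0.112 over 155 relations) with rho = 0.874 (permutation p = 0.00244, adjusted p = 0.0945), and 0.706 without saline 38 and Aducanumab 58. Srebf1 went the other way, with r = -0.844 (permutation p = 0.00808, adjusted p = 0.116) and rho = -0.709 (permutation p = 0.0228, adjusted p = 0.179), and -0.587 without those libraries. Of the opposed pair above, Scd1 had r = -0.742 with the neuron sum (permutation p = 0.00942, adjusted p = 0.116) and rho = -0.747 (permutation p = 0.00866, adjusted p = 0.126), and -0.744 without those libraries. Fdps had r = 0.774 (permutation p = 0.00768, adjusted p = 0.116) and rho = 0.775 (permutation p = 0.00872, adjusted p = 0.126), and 0.677 without them. Scd2 had r = 0.922 with the oligodendrocyte and myelin sum (permutation p = 0.00446, adjusted p = 0.116) with rho = 0.94 (permutation p = 0.00226, adjusted p = 0.0945), and 0.844 without ACLP-NT 17 and 27. No relation of the 155 passed after adjustment of the Pearson p. The median r was -0.278 with the oligodendrocyte sum, -0.271 with the astrocyte sum, -0.368 with the precursor sum and 0.0932 with the microglia sum. Aducanumab 58 also had the highest sums of meningeal fibroblast markers (1797 CPM) and blood cell markers (360 CPM, where the ACLP-NT libraries had 88.9 to 213). The part of cell makeup in the shared variation was not tested.

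In ACLP-NT against saline, no gene of the 31 passed the test, and most lay slightly lower in ACLP-NT. The edgeR quasi-likelihood test, with Benjamini-Hochberg adjustment over 22065 genes, called 0% of all genes, and the smallest adjusted p of the 31 was 0.754. The fold change was below 0 for 28 of the 31 genes (90.3%), beside 50.6% of all genes. Their median log2 fold change was -0.10, beside -0.0015 for all genes. Since these genes vary together from library to library, the 31 values are not independent. The list was also chosen with earlier results of these data known, so these shares are descriptions. At an unadjusted p under 0.05, 5 were lower and 0 higher, beside 3.43% and 2.46% of all genes. The groups did not overlap for 1 gene lower (Acly) and 0 higher, beside 1.33% and 0.925% of all genes.

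The mevalonate enzymes had the lowest median, at -0.14, with 7 of 8 below 0. Fdps, which makes the farnesyl diphosphate used for squalene and for protein prenylation, had the library values given above and averaged 60.9 ± 5.23 CPM in saline (SD, n = 4) and 52.1 ± 5.61 in ACLP-NT (SD, n = 5). All ACLP-NT libraries but 17 lay below the lowest saline library. Its log2 fold change was -0.23 with a standard error (SE) of 0.097 (edgeR adjusted p = 0.797). Mvd, which makes isopentenyl diphosphate, had 19.8, 20.5, 22.5 and 19.5 CPM in saline and 20.1, 16.6, 15.8, 16.9 and 16.5 in ACLP-NT. Again ACLP-NT 17 alone lay within the saline range. The log2 fold change of Mvd was -0.26 with an SE of 0.112 (edgeR adjusted p = 0.797), the lowest of the 31 genes.

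Hmgcs1, at the entry to the pathway, had 286, 256, 284 and 261 CPM in saline and 264, 244, 259.8, 233 and 247 in ACLP-NT. The ranges overlapped, with ACLP-NT 17 and 49 inside the saline range, and the log2 fold change was -0.12 (SE 0.0905, edgeR adjusted p = 0.926). Acat2 and Mvk had values of -0.15 each, Pmvk of -0.11 and Idi1 of -0.045. Ggps1, on the branch that leads away from sterols, was the only one of the 8 above 0, at 0.018.

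The sterol enzymes had a median of -0.090, with 10 of 11 below 0. Nsdhl, on the X chromosome, acts in the removal of methyl groups from lanosterol and had 32.7, 34.1, 34.0 and 32.4 CPM in saline and 32.4, 28.3, 31.2, 29.5 and 26.6 in ACLP-NT. ACLP-NT 17 reached the saline range and the other 4 lay below it. Its log2 fold change was -0.17 with an SE of 0.0789 (edgeR adjusted p = 0.839). Sqle, a rate-limiting enzyme of the sterol branch, had 96.8, 79.3, 89.4 and 82.6 CPM in saline and 83.0, 75.2, 82.4, 71.9 and 77.6 in ACLP-NT. These ranges overlapped, at -0.16 (SE 0.0955, edgeR adjusted p = 0.89).

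Dhcr7, at the end of the route, had 38.1, 38.9, 39.9 and 35.5 CPM in saline and 37.7, 34.8, 37.2, 32.5 and 37.7 in ACLP-NT. Its groups overlapped and differed by -0.083 (SE 0.0718, edgeR adjusted p = 0.944). Msmo1 had -0.14, Hsd17b7 -0.13, Fdft1 -0.11, Tm7sf2 -0.090, Cyp51 -0.071, Lss -0.071 and Sc5d -0.011. Ebp alone was above 0, at 0.027.

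The regulators had a median of -0.060, with 5 of 6 below 0 and none at an unadjusted p under 0.05. Srebf2 had 297, 272, 280.2 and 264 CPM in saline and 275, 266, 262, 268 and 269.7 in ACLP-NT. The ACLP-NT values lay close together near the lower saline values, and the difference was -0.053 (SE 0.0478, edgeR adjusted p = 0.948). Srebf1 had 84.8, 91.6, 87.6 and 103 CPM in saline and 88.1, 76.7, 88.9, 89.5 and 80.1 in ACLP-NT, with 2 ACLP-NT libraries below saline and a difference of -0.12 (SE 0.0888, edgeR adjusted p = 0.929). Insig1, itself a target of SREBP and the brake on Scap, had 78.3, 67.9, 71.6 and 70.5 CPM in saline and 69.8, 65.8, 69.3, 72.8 and 66.1 in ACLP-NT. Its groups overlapped, at -0.068 (SE 0.0654, edgeR adjusted p = 0.948). Stard4, with the library values given above, had -0.18 (SE 0.124, edgeR adjusted p = 0.919), Scap -0.038 and Insig2 0.021.

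All 6 enzymes of fatty acid synthesis were below 0, with a median of -0.097. Acly had 180.1, 167, 171 and 169 CPM in saline and 159, 162, 166, 149 and 159 in ACLP-NT. Every ACLP-NT library lay below every saline library, the nearest being ACLP-NT 49 and saline 19. The log2 fold change was -0.11 with an SE of 0.0394 (edgeR adjusted p = 0.754). Acaca had 89.98, 83.7, 92.7 and 81.3 CPM in saline and 77.6, 77.0, 84.6, 73.0 and 81.8 in ACLP-NT. ACLP-NT 49 and 55 reached into the saline range, and the log2 fold change was -0.14 with an SE of 0.0525 (edgeR adjusted p = 0.776).

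Fasn had 321, 301, 313 and 274 CPM in saline and 288, 286, 283, 278 and 283 in ACLP-NT. All ACLP-NT values lay between saline 38 and the other 3 saline libraries, and the difference was -0.092 (SE 0.0547, edgeR adjusted p = 0.887). Scd1 overlapped between groups and had -0.10 (SE 0.0687, edgeR adjusted p = 0.912). Scd2 had 1738, 1722, 1730.3 and 1701 CPM in saline and 1514, 1547, 1714, 1686 and 1659 in ACLP-NT. The lowest values were those of ACLP-NT 17 and 27, the libraries with the lowest myelin sums, and the difference was -0.085 (SE 0.0473, edgeR adjusted p = 0.873). Acss2 had -0.0012.

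**Figure D4:**
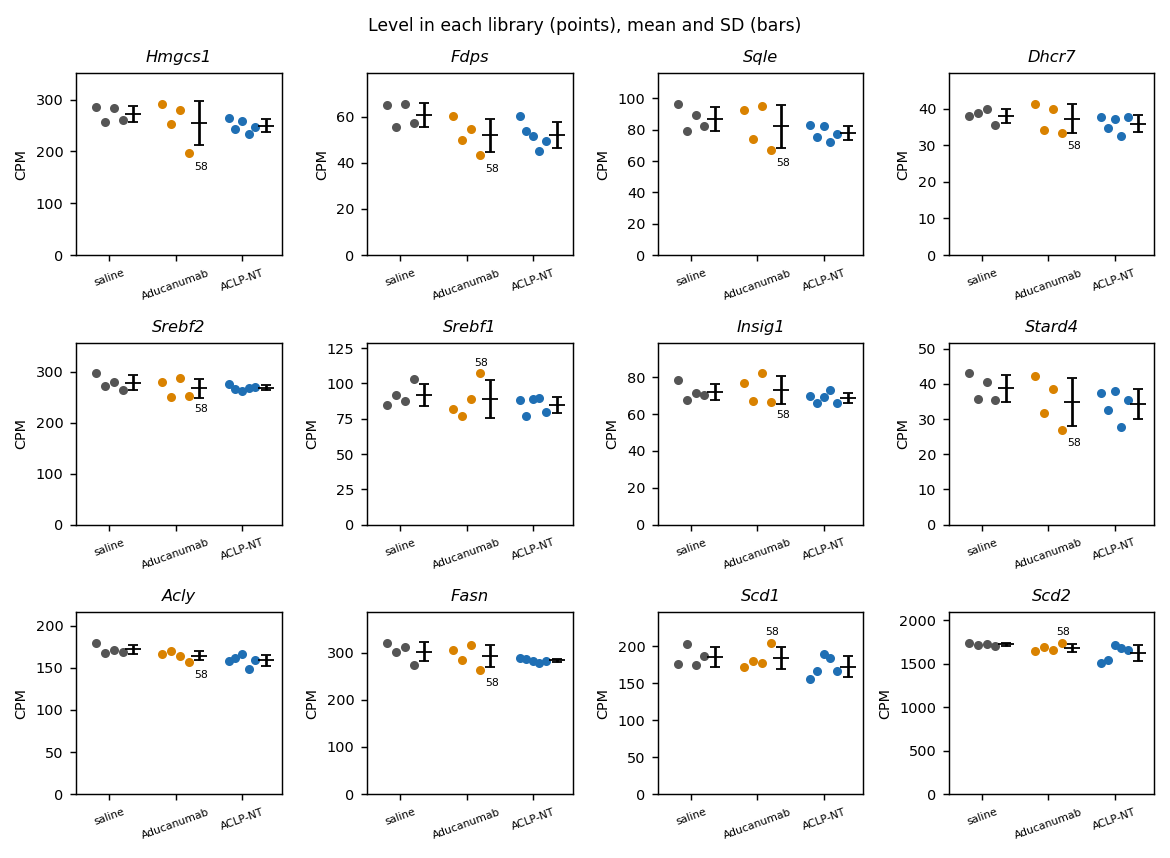
CPM in each library for the 12 genes followed in every library (Hmgcs1, Fdps, Sqle, Dhcr7, Srebf2, Srebf1, Insig1, Stard4, Acly, Fasn, Scd1 and Scd2), by group (points), with the mean and SD beside them and Aducanumab 58 labelled. Acly is the gene whose ACLP-NT libraries (149 to 166) all lie below the saline libraries (167 to 180.1), and Aducanumab 58 stands at the bottom of its group for Hmgcs1, Fdps, Sqle and Stard4.

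The count of 5 genes at an unadjusted p under 0.05 depended on single libraries. It was 1 without saline 32, 2 without saline 18, 3 without saline 19, 2 without ACLP-NT 53, 2 without ACLP-NT 55, 3 without ACLP-NT 27, 3 without ACLP-NT 49 and 8 without Aducanumab 58, and it was 10 with only the saline and ACLP-NT libraries in the fit. The share of all genes at that p was not counted in these fits, so a change in the count may belong to the fit and not to these genes. The microglia marker sum was 1095 to 1336 CPM in saline and 753 to 1105 in ACLP-NT, with all 9 markers lower and 8 of them at an unadjusted p under 0.05. Other marker lists also differed in ACLP-NT: 8 of 8 hippocampal neuron markers were higher (median log2 fold change 0.23, 4 at an unadjusted p under 0.05), 10 of 10 choroid plexus markers were higher (median 0.78, 0 at that p), 6 of 6 neocortex markers were lower (median -0.29, 1 at that p) and 8 of 9 astrocyte markers were lower (median -0.028, 0 at that p). Blood cell markers (5 of 5, median -0.10) and meningeal fibroblast markers (6 of 7, median -0.13) were lower too, 0 at that p. Of the endothelium and pericyte markers 5 of 8 were lower (median -0.054, 1 at that p). Myelin (8 of 12), precursor (5 of 7), neuron (4 of 9) and thalamus markers (3 of 6) were lower in part, 0 at that p. No marker passed after adjustment, and the part of these lists in the result was not tested.

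In Aducanumab against saline, too, no gene of the 31 passed the test, and the values lay closer to 0. The edgeR test called 0% of all genes, and the smallest adjusted p of the 31 was 1. The fold change was below 0 for 23 of the 31 genes (74.2%), beside 48.7% of all genes. Their median was -0.045, beside 0.0036 for all genes. At an unadjusted p under 0.05, 1 gene was lower and 0 were higher, beside 2.62% and 2.07% of all genes. The groups did not overlap for 0 of the 31 genes, in either direction, beside 1.41% of all genes lower and 1.16% higher. This comparison shares its saline libraries with the one before, so the 2 sets of values are not independent.

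The gene at an unadjusted p under 0.05 was Fdps, with 52.0 ± 7.19 CPM in Aducanumab (SD, n = 4), a log2 fold change of -0.23 and an SE of 0.103 (edgeR adjusted p = 1). Aducanumab 24 lay within the saline range, and the other 3 lay below it. By role the medians were -0.080 for the mevalonate enzymes (7 of 8 below 0), -0.031 for the sterol enzymes (8 of 11), -0.021 for the regulators (3 of 6) and -0.031 for fatty acid synthesis (5 of 6). Mvd had -0.18 (SE 0.118), Mvk -0.14 (SE 0.0887) and Nsdhl -0.10 (SE 0.0834), none with an unadjusted p under 0.05. Acly had 167, 170.0, 164 and 157 CPM in Aducanumab and a difference of -0.064 (SE 0.0416, edgeR adjusted p = 1). Acaca had 84.7, 84.9, 89.8 and 81.0 CPM and a difference of -0.030 (SE 0.0554).

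The spread between libraries was widest in Aducanumab for several of these genes. Hmgcs1 had 293, 253, 280.3 and 196 CPM in libraries 24, 50, 56 and 58 (SD 42.8, beside 15.3 in saline and 12.5 in ACLP-NT), against a saline range of 256 to 286, and its difference from saline was -0.089 (SE 0.0955). Sqle had 92.6, 73.9, 95.3 and 67.2 CPM in the same order, at -0.081 (SE 0.101). Dhcr7 had 41.5, 34.3, 40.0 and 33.4 CPM, at -0.031 (SE 0.0758). For these 3 genes libraries 24 and 56 were high and libraries 50 and 58 low, with the low pair below the saline range. Library 24 lay above that range for Hmgcs1 and Dhcr7. Library 56 was just above it for Dhcr7 (40.01 CPM, beside 39.95 in saline 32). Mvd, at 20.01, 14.99, 22.0 and 15.5 CPM, and Nsdhl, at 34.5, 28.5, 34.0 and 26.9 CPM, had the same high and low libraries.

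Srebf2 followed with 279.8, 251, 287 and 252 CPM and a difference of -0.059 (SE 0.0505). Insig1 had 76.8, 67.0, 82.3 and 66.5 CPM, at 0.021 (SE 0.069), and Fasn 305, 285, 316 and 264 CPM, at -0.048 (SE 0.0578). Stard4 had a difference of -0.15 (SE 0.131). For these genes too, libraries 24 and 56 were above libraries 50 and 58. Srebf1 stood apart from that order, with 82.2, 76.9, 89.3 and 107 CPM, the highest in library 58, at -0.045 (SE 0.0938). Scd2 had 1643, 1693, 1657 and 1744 CPM, also highest in library 58, at -0.032 (SE 0.0499), and Scd1 differed by -0.011 (SE 0.0725).

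Without Aducanumab 58 the median of the 31 genes was 0.0062, so its direction rested on that library. The count at an unadjusted p under 0.05 was 0 without saline 18, saline 32, Aducanumab 50, Aducanumab 58 or ACLP-NT 49, each left out alone, and 2 without Aducanumab 24 or Aducanumab 56. It was also 0 with the choroid plexus sum as a covariate. The share of all genes at that p was not counted in these fits either. The microglia marker sum was 899 to 1119 CPM in Aducanumab, with all 9 markers lower than in saline and 3 of them at an unadjusted p under 0.05. Markers of choroid plexus (10 of 10, median 0.82), meningeal fibroblasts (7 of 7, median 0.30), blood cells (5 of 5, median 0.46), hippocampal neurons (7 of 8, median 0.16) and thalamus (5 of 6, median 0.49) were higher in Aducanumab, and neocortex markers lower (6 of 6, median -0.47). Of these, 3 neocortex markers were lower, 3 thalamus and 2 hippocampal neuron markers higher and 1 hippocampal neuron marker lower at an unadjusted p under 0.05. Myelin (3 of 12), precursor (5 of 7), astrocyte (4 of 9) and neuron markers (5 of 9) were lower in part, 0 at that p. Of the endothelium and pericyte markers 5 of 8 were lower, 1 at that p. No marker passed after adjustment, and the part of these lists in the result was not tested.

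**Figure D5:**
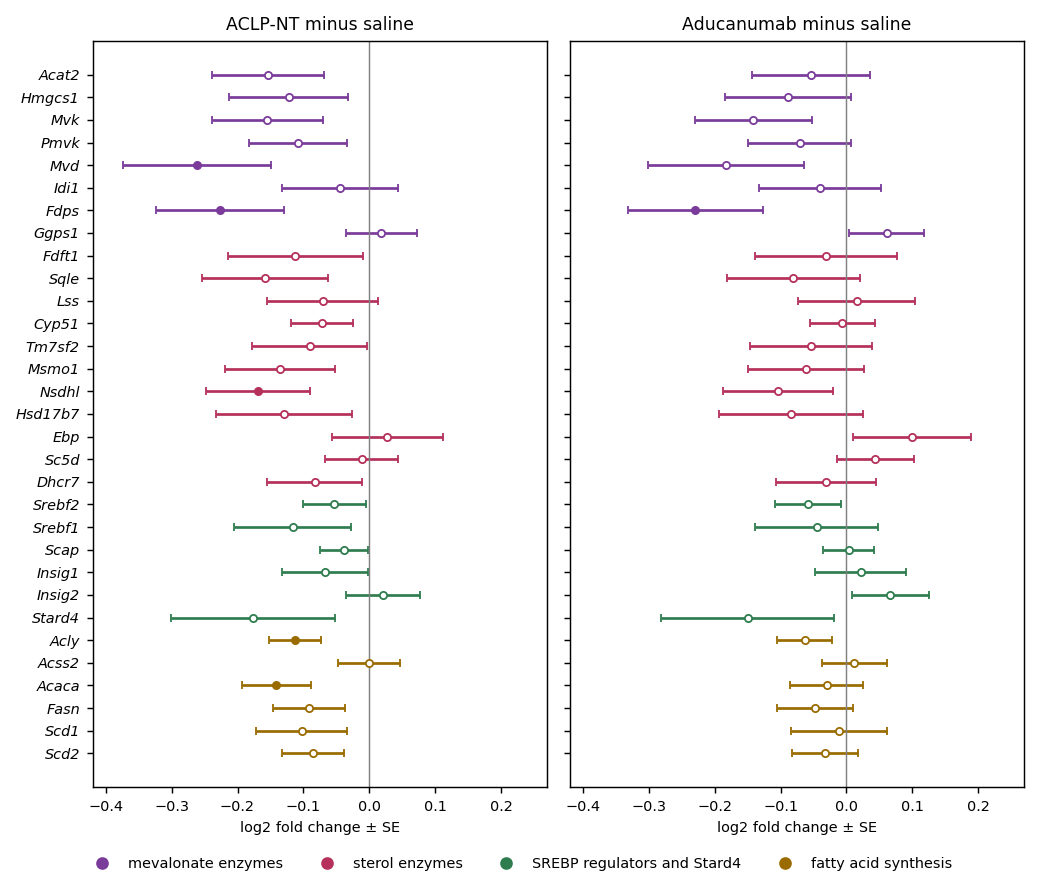
Log2 fold change of each of the 31 genes against saline, for ACLP-NT on the left and Aducanumab on the right, coloured by role, with bars of 1 SE from the edgeR fit and filled points where the unadjusted p is under 0.05. In ACLP-NT minus saline 28 of 31 points lie below 0 and 5 are filled, and in Aducanumab minus saline 23 lie below 0 and Fdps alone is filled.

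Between the treatments, ACLP-NT against Aducanumab, no gene of the 31 passed the test. The edgeR test called 0% of all genes, and the smallest adjusted p of the 31 was 1. The fold change was below 0 for 29 of 31 genes (93.5%), beside 52.4% of all genes, with a median of -0.052 beside -0.0065 for all genes. At an unadjusted p under 0.05 there were 0 lower and 0 higher, beside 1.71% and 1.53% of all genes. The groups did not overlap for 0 genes, beside 0.644% of all genes lower and 0.693% higher. Acaca had the smallest p, above 0.05 before adjustment, with a difference of -0.11 (SE 0.0525, edgeR adjusted p = 1). All 11 sterol enzymes (median -0.066) and all 6 fatty acid enzymes (median -0.051) were below 0. The mevalonate enzymes had a median of -0.036 (7 of 8 below 0) and the regulators one of -0.044 (5 of 6 below 0). Fdps, at 0.0025, and Srebf2, at 0.0053, were the 2 genes above 0. Without Aducanumab 58 the median was -0.089 and 4 genes had an unadjusted p under 0.05, and without Aducanumab 24 the median was -0.015. The count was 1 without ACLP-NT 49 and 1 without ACLP-NT 55, and the share of all genes was not counted in these fits. Markers of blood cells (5 of 5, median -0.60), meningeal fibroblasts (7 of 7, median -0.42), thalamus (6 of 6, median -0.51) and myelin (11 of 12, median -0.085) were lower in ACLP-NT, and 7 of 8 hippocampal neuron markers were higher (median 0.11). At an unadjusted p under 0.05, 2 thalamus markers were lower and 1 hippocampal neuron marker was higher. Astrocyte (7 of 9), microglia (7 of 9), choroid plexus (7 of 10), precursor (5 of 7) and neuron markers (6 of 9) were lower in part. Of the endothelium and pericyte markers 3 of 8 were lower, and of the neocortex markers 2 of 6. No marker passed after adjustment, and the part of these lists in the result was not tested.

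Ratios within a library, which do not depend on its scaling, were compared for paralogs and parallel enzymes by exact two-sided permutation tests, 12 in all. The ratio of Srebf1 to Srebf2, in FPKM, was 0.422 ± 0.057 in saline (SD, n = 4), 0.426 ± 0.0786 in Aducanumab (SD, n = 4) and 0.402 ± 0.0286 in ACLP-NT (SD, n = 5). The ratio of Insig1 to Insig2 was 1.68 ± 0.0988 in saline, 1.63 ± 0.215 in Aducanumab and 1.57 ± 0.0691 in ACLP-NT. ACLP-NT differed from saline by -0.091 on the log2 scale for this ratio (exact p = 0.127, adjusted p = 0.81). The ratio of Scd1 to Scd2 was 0.12 ± 0.00914, 0.122 ± 0.00629 and 0.118 ± 0.00518 in the same order of groups. The ratio of Acss2 to Acly, the acetate and citrate routes to acetyl-CoA, was 0.182 ± 0.014, 0.192 ± 0.01 and 0.197 ± 0.0108. The size of a ratio in FPKM depends on the gene lengths used. Mean CPM in saline was 60.3 for Acss2 and 172 for Acly. The ratio of Acss2 to Acly was 0.11 higher on the log2 scale in ACLP-NT than in saline (exact p = 0.135, adjusted p = 0.81). No test of the 12 had an adjusted p under 0.81. The smallest p the tests could give was 0.00794 for 5 libraries against 4 and 0.0286 for 4 against 4.

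Other genes of lipid synthesis, 65 in 5 lists and all tested, gave 0 calls after adjustment in each comparison, with medians nearer to 0 than those of the 31 genes. In ACLP-NT against saline 41 of 65 (63.1%) were below 0, beside 50.6% of all genes, with a median of -0.017. At an unadjusted p under 0.05, 2 were lower and 2 higher, near the shares of all genes (3.43% and 2.46%). Mid1ip1, whose protein promotes the assembly of acetyl-CoA carboxylase into active filaments, had 91.4, 92.3, 94.9 and 94.0 CPM in saline and 81.6, 80.7, 79.0, 81.9 and 85.5 in ACLP-NT. These groups did not overlap, at -0.19 (SE 0.0452, edgeR adjusted p = 0.722). Its paralog Thrsp, a gene tied to lipogenesis, was at 0.28 (SE 0.105, edgeR adjusted p = 0.776). Acsl3, a long-chain acyl-CoA synthetase, was at 0.15 (SE 0.0443, edgeR adjusted p = 0.722). Cyp46a1, the neuronal cholesterol hydroxylase that lets cholesterol leave the brain, was at -0.19 (SE 0.0859, edgeR adjusted p = 0.832).

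By list, 5 of 13 genes of SREBP processing and sterol sensing were below 0, with a median of 0.011 and none at an unadjusted p under 0.05. For elongation, desaturation and activation of fatty acids it was 11 of 20 (median -0.010, 1 higher at that p), for supply and control of fatty acid synthesis 9 of 12 (median -0.019, 1 lower and 1 higher), for esterification, turnover and transport of cholesterol 8 of 10 (median -0.026, 1 lower), and for use of isoprenoids 8 of 10 (median -0.031, none).

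In Aducanumab against saline 38 of the 65 (58.5%) were below 0, beside 48.7% of all genes, with a median of -0.0099. At an unadjusted p under 0.05, 3 were lower and 2 higher, beside 2.62% and 2.07% of all genes. Acsl3 had 183, 168, 176 and 157 CPM in saline and 192, 186, 187 and 189 in Aducanumab. These groups did not overlap, at 0.14 (SE 0.0466, edgeR adjusted p = 1). The next by p were Acsl5, another acyl-CoA synthetase, at -0.16 (SE 0.0626), Thrsp at 0.26 (SE 0.111) and Mid1ip1 at -0.11 (SE 0.0477). In ACLP-NT against Aducanumab 31 of the 65 (47.7%) were below 0, beside 52.4% of all genes, with 2 lower and 1 higher at that p, beside 1.71% and 1.53% of all genes. Prkab1, a regulatory subunit of AMP-activated protein kinase, was at 0.23 (SE 0.0842), and Me1, the malic enzyme that supplies NADPH, at -0.12 (SE 0.0539). Scd4 was at -1.41 (SE 0.55), with 3.45 CPM in Aducanumab 24 and 0.322 to 0.819 CPM in the other libraries of both groups.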

How the data were processed

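Bulk poly(A) RNA-seq of 13 hippocampus libraries was deposited as 1 table. Raw counts per gene are whole numbers that the authors deposited without normalization, and FPKM values are, per the file headers, the authors' fragment values per gene length and library size. The submitters' processing notes list HISAT2 2.0.4, cutadapt 1.9, edgeR and StringTie 1.3.4d. For the counter, its use of strand, the annotation and the build, nothing is stated in the sources used here. The members and gene lists were chosen with earlier results of these data known.

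Genes were filtered with filterByExpr (22065 of 36287 kept), scaled by TMM and tested with the edgeR 4.0.16 quasi-likelihood test (two-sided, 3 groups in 1 fit, Benjamini-Hochberg threshold 0.05 over all genes tested). CPM values are after TMM, and SEs were derived as the size of the log2 fold change over the root of its F statistic. The common biological coefficient of variation was 0.226, and the scripts were tested on simulated data. For ACLP-NT against saline, with changed genes drawn from all tested genes, 9 of 67 were recovered at 1.25-fold. At 1.5-fold 21 of 67 were recovered, and at 2-fold 40 of 66. Small changes in genes drawn this way would thus mostly be missed. The median coefficient of variation within groups was 7.80% for the 31 genes, beside 14.3% for all genes tested. Recovery for the 31 genes alone was not measured, and a gene that did not pass is not shown to be unchanged. Total counts ran from 57513570 to 69734713 in saline, from 56858092 to 64431803 in Aducanumab and from 53642019 to 64874729 in ACLP-NT. A mean count under 100 was found for 31.8% of tested genes. Libraries of 1 group always differed beyond sampling noise (lowest chi-square per degree of freedom 13.9). Correlations used log2 CPM (prior count 2) less the group means, with 100000 permutations within groups. All 31 members were named by role, with library values for 12 and for every member at an unadjusted p under 0.05, the 4 related genes of smallest p in each comparison and the 3 highest and lowest pairs. Alternatives were other filters, scalings, covariates and samples, DESeq2 1.42.0, and limma 3.58.1 on log2(FPKM + 1).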

Additional observations from a re-analysis of the deposited data

Results flagged for a closer look

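Among 105 groups of 4 or 5 libraries checked for a value far from the rest (member CPM and the 4 ratios), 2 held one, and chance gives about 1 in 20. Mvd had 20.1 CPM in ACLP-NT 17, against 15.8 to 16.9 in the other ACLP-NT libraries. The ratio of Srebf1 to Srebf2 was 0.543 in Aducanumab 58, against 0.374 to 0.397 in the other Aducanumab libraries.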

How the results depend on the processing

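In 23 alternatives no member passed an adjusted p of 0.05 in any comparison. With DESeq2, 9 genes were called in ACLP-NT against saline, 18 in Aducanumab against saline and 3 in ACLP-NT against Aducanumab, none of them a member, where edgeR called 0 and limma 0. At an unadjusted p under 0.05 edgeR gave 1298, 1033 and 716 genes and limma 1433, 1126 and 826. With each library left out in turn, edgeR called 0 to 1 genes in each comparison, the 1 arising without saline 32 in both comparisons with saline, and without ACLP-NT 49 in both comparisons with Aducanumab. No paired analysis was possible because the 3 groups share no replicate number.

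Members at an unadjusted p under 0.05 numbered 10 with only the 2 groups compared (ACLP-NT against saline) and 0 with the choroid plexus covariate (Aducanumab against saline). With single libraries left out they numbered 1 to 8 in ACLP-NT against saline, 0 to 2 in Aducanumab against saline and 0 to 4 in ACLP-NT against Aducanumab. For these alternatives the share of all genes at that p was not counted. The median of the members ran from -0.118 to -0.0798, from -0.0753 to 0.00617 and from -0.0885 to -0.0151 in the same order, and the other alternatives kept it below 0 in all 3 comparisons.

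Under the alternatives that left out no single library, these values changed sign. In ACLP-NT against saline Acss2 was 0.00066 with upper quartile scaling and 0.0012 with only those groups, and Sc5d was 0.004 with the choroid plexus covariate. In Aducanumab against saline Scap was -0.0013 without a filter, and Fdft1 was 0.0049 and Acss2 -0.00015 with the choroid plexus covariate. In ACLP-NT against Aducanumab Fdps was -0.0015 at a mean FPKM of at least 5 and -0.042 with the myelin covariate, Srebf2 was -0.0014 with the myelin covariate, and Idi1 was 0.0072 with limma. The cause was not tested.

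With single libraries left out, these members spanned 0 in ACLP-NT against saline: Ebp (-0.02 to 0.067), Insig2 (-0.031 to 0.061), Sc5d (-0.039 to 0.018) and Acss2 (-0.038 to 0.033, with 0.00053 without Aducanumab 58). In Aducanumab against saline 17 did: Hmgcs1 (-0.16 to 0.02), Acat2 (-0.13 to 0.034), Idi1 (-0.13 to 0.049), Fdft1 (-0.1 to 0.052), Sqle (-0.16 to 0.0062), Lss (-0.057 to 0.082), Cyp51 (-0.041 to 0.023), Msmo1 (-0.12 to 0.029), Hsd17b7 (-0.19 to 0.021), Sc5d (-0.0016 to 0.076), Dhcr7 (-0.085 to 0.02), Srebf1 (-0.15 to 0.018), Scap (-0.019 to 0.024), Insig1 (-0.04 to 0.066), Acss2 (-0.027 to 0.044), Acaca (-0.062 to 0.0031) and Scd1 (-0.066 to 0.035). In ACLP-NT against Aducanumab 13 did: Hmgcs1 (-0.14 to 0.038), Mvk (-0.065 to 0.063), Mvd (-0.16 to 0.029), Idi1 (-0.092 to 0.087), Fdps (-0.076 to 0.081), Ggps1 (-0.083 to 0.012), Sqle (-0.16 to 0.0018), Hsd17b7 (-0.15 to 0.059), Dhcr7 (-0.1 to 0.0022), Srebf2 (-0.024 to 0.041), Srebf1 (-0.14 to 0.032), Stard4 (-0.13 to 0.079) and Acss2 (-0.028 to 0.0058). The log2 ratio of Srebf1 to Srebf2 ran from -0.13 to 0.02 in ACLP-NT against saline, from -0.12 to 0.09 in Aducanumab against saline and from -0.13 to 0.052 in ACLP-NT against Aducanumab. That of Scd1 to Scd2 ran from -0.046 to 0.028 in ACLP-NT against saline and from -0.016 to 0.067 in Aducanumab against saline. That of Insig1 to Insig2 ran from -0.13 to 0.012 in Aducanumab against saline and from -0.1 to 0.041 in ACLP-NT against Aducanumab. The leave-one-out of the enzyme correlations was chosen after seeing the data. Counting error is small for these genes, which had at least 619 counts in every library, and the 4 or 5 libraries per group limit the precision.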
